A study of Mus musculus with 24 samples.

Results

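Among 24 sequenced samples of mouse inguinal white adipose tissue, 13 came from mice of 16 weeks, and these 13 libraries differed widely in the RNA of lymphocytes. The sets compared here were chosen by the measured level of 1 gene, Ighd, the constant region of immunoglobulin D, which marks mature B cells that have not yet met antigen. A library with an Ighd level of 10 CPM or more (counts of the gene per 1000000 counts of the library) is called node-containing here, and 1 under 10 CPM node-poor. By this rule 7 of the 13 libraries were node-containing and 6 were node-poor. The names are working names for a level of RNA, since the labels give no record of lymph nodes in the tissue.

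All mice were labelled C57BL/6J WT, and the series title gives a high fat diet for the whole study. The depot was removed at necropsy, frozen, and its RNA sequenced from the 3′ ends of transcripts with the Lexogen Quant-Seq kit. Of the 16-week mice, 7 were Young CTRL, the reference group of the series, and 6 were Young BAM15. BAM15 is a small molecule known as a mitochondrial uncoupler. The 11 mice of 92 weeks, 6 Aged CTRL and 5 Aged BAM15, served here to look at the same split in other animals. Each label carries its own animal number, so each library stands for 1 mouse.

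The inguinal fat pad of the mouse encloses a lymph node, so a piece of the pad can hold more or less of it. Lymph nodes gather B cells in follicles, around follicular dendritic cells that make the chemokine Cxcl13, and T cells in the zone beside them. Lymphocytes enter from the blood through high endothelial venules, vessels lined with sugar-coated proteins such as Glycam1 to which the passing lymphocytes attach. Lymphotoxin made by lymphocytes keeps this architecture in place through its receptor on stromal cells. Macrophages line the sinuses through which the lymph flows.

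Library totals ran from 8624158 to 21865353 counts at 16 weeks and from 9340956 to 21232029 counts at 92 weeks. A few libraries stood apart for reasons other than lymphocytes. Young CTRL 1, which is node-containing, carried keratin and mammary epithelial RNA, with 914 CPM of the basal keratin Krt14. Young CTRL 7, which is node-poor, held 78.3 CPM of Krt14. Each set held 1 muscle-rich library, with skeletal muscle actin (Acta1) at 12200 CPM for the node-poor Young CTRL 7 and at 13500 CPM for the node-containing Young BAM15 3. The mitochondrial ribosomal RNA mt-Rnr2 took 0.121% of the counts in the node-poor Young CTRL 4 and 0.985% to 2.26% in the other 12 libraries of this age. Counts of the set comparison without these libraries are given further on. For some lists, medians without Young CTRL 1 stand beside the results.

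Promoters of 3 genes that go with the split are shown for orientation, as the 250 bases before the start of the transcript in RefSeq (GRCm38.p6), read on the strand of the gene. Vpreb3 and Blnk are the members of the B cell list whose promoter holds the octamer ATGCAAAT or its reverse complement ATTTGCAT, a motif known from immunoglobulin promoters and bound by Oct factors with the B cell coactivator Pou2af1. The octamer is in capitals. Glycam1 is shown as the venule gene with the largest difference, and its window holds no octamer.
Vpreb3, chr10:75948050-75948299, plus strand: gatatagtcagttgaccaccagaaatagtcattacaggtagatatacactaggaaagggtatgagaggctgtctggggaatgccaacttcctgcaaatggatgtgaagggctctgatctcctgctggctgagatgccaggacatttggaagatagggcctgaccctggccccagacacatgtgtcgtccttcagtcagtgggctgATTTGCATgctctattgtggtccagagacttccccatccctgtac
Blnk, chr19:40994222-40994471, minus strand: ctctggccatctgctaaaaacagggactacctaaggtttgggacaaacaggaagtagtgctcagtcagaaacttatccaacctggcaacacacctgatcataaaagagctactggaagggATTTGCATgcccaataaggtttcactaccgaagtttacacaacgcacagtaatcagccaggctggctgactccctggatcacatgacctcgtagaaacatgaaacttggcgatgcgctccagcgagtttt
Glycam1, chr15:103565082-103565331, minus strand: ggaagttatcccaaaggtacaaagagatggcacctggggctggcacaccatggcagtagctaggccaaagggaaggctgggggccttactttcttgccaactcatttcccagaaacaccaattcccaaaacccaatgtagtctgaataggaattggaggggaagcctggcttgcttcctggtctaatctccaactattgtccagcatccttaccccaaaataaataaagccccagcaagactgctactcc
On both strands together, 2 of the 19 promoters that the table holds for 16 of the B cell genes had the octamer (10.5%), against 526 of all 32851 promoters of the same length (1.6%). A match is a run of letters and was not tested as a binding site.

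Ighd lay at 73.1, 129 and 367 CPM (lowest, median and highest) in the 7 node-containing libraries and at 1.22, 1.94 and 5.28 CPM in the 6 node-poor ones. These values chose the sets, so they are a description. The lowest of the upper set was Young BAM15 4 and the highest of the lower set Young CTRL 3, and no library lay between 5.28 and 73.1 CPM. In rising order the node-containing libraries were Young BAM15 4, Young BAM15 3, Young CTRL 1, Young CTRL 5, Young BAM15 2, Young BAM15 6 and Young BAM15 5. Ighd is on chromosome 12 from 113406604 to 113416324 (GRCm38), minus strand. In bulk tissue, fewer cells of a type and less RNA per cell cannot be told apart.

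The other markers of lymph node tissue followed the same division. Cr2, the complement receptor of B cells and follicular dendritic cells, lay at 72.3, 85.3 and 330 CPM in the node-containing libraries and at 0.137, 0.618 and 0.981 CPM in the node-poor ones. Trbc2, a constant region of the T cell receptor beta chain, lay at 32.2, 80.3 and 229 CPM against 2.91, 3.76 and 5.44 CPM. Glycam1 lay at 13.9, 29.2 and 116 CPM against 0 CPM in 4 of the node-poor libraries and 0.152 and 0.157 CPM in the remaining pair. For each of these 3 genes the lowest node-containing library was above the highest node-poor one. The library with the most Ighd, Young BAM15 5, also had the most Cr2, Trbc2 and Glycam1.

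**Figure D1:**
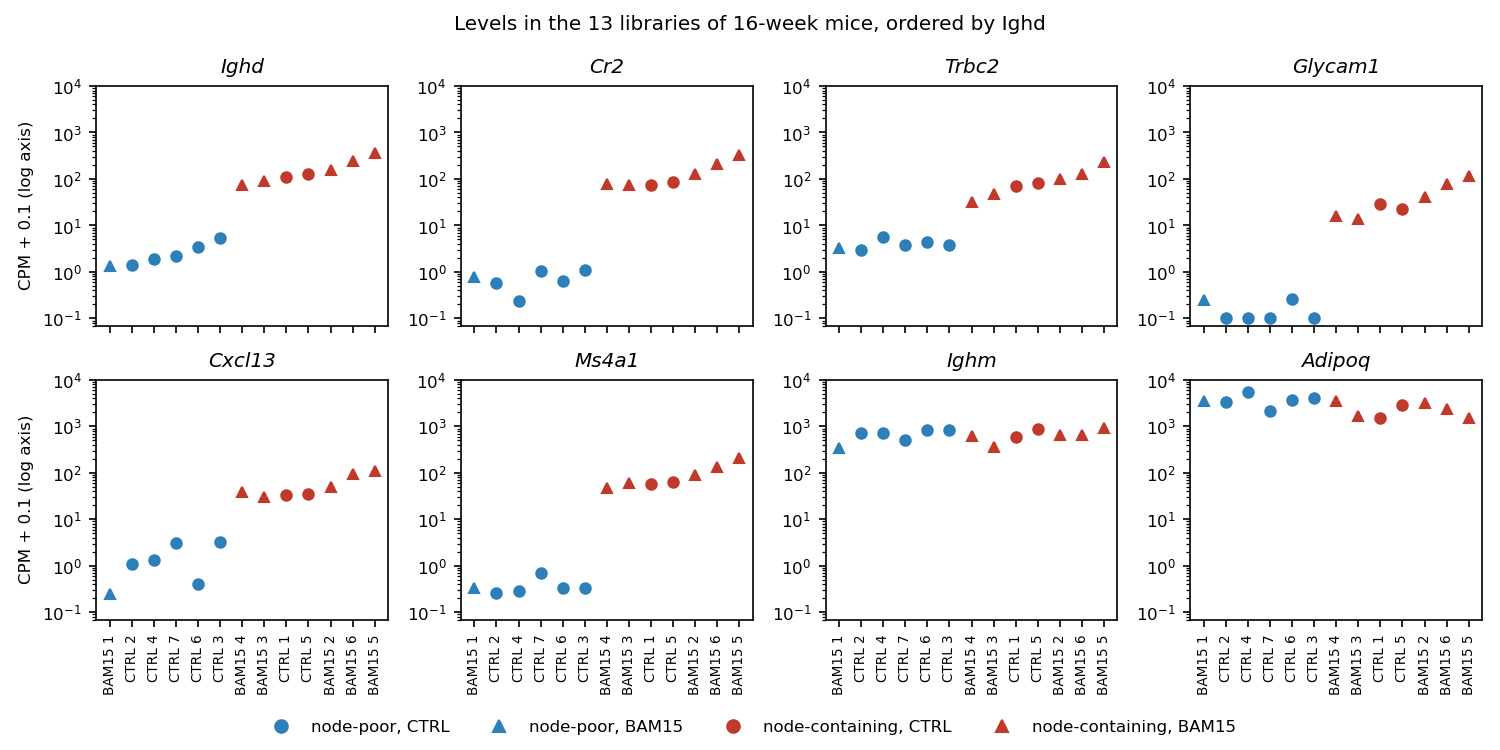
Level of 8 genes in the 13 libraries of 16-week mice (vertical axis, CPM + 0.1 on a log axis; horizontal axis, libraries in rising order of Ighd; circles CTRL, triangles BAM15; red node-containing, blue node-poor). Ighd, Cr2, Trbc2, Glycam1, Cxcl13 and Ms4a1 separate the sets, while Ighm and the adipocyte gene Adipoq overlap.

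Across the genome, both sets were compared with edgeR's quasi-likelihood fit, with treatment as a covariate. Differences are log2 values, node-containing minus node-poor, with their standard error (SE), and a gene is called at a Benjamini-Hochberg adjusted p under 0.05. Of 17221 genes tested, 543 were called higher (3.15%) and 11 lower (0.0639%), with a median difference of 0.03 over all genes. An unadjusted p under 0.05 was reached by 2614 of the 17221 (15.2%), the share to set beside such counts in the lists below. Every node-containing library lay above every node-poor one for 945 genes (5.49%) and below for 13 (0.0755%). The sets were made from one of the genes that make up this contrast, so no p of a single gene is printed for it. Calls and counts of p sort the genes and describe how far the RNA that goes with Ighd reaches. They are no test of the split. When each library was left out in turn, 235 of the 543 genes were called higher in all 13 fits. Without Young CTRL 1 only 290 of them were, without Young BAM15 1, the sole node-poor BAM15 library, 287, and with Young CTRL 3 moved to the upper set by a threshold of 5 CPM, 31. Without Young CTRL 1, 22 of 23 B cell and 19 of 22 T cell genes were called, against 2 of 12 dendritic cell, 2 of 9 venule, 1 of 11 stromal and 3 of 14 plasma cell genes.

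B cell genes had the highest median difference of the lists with more than 1 gene. Of 23 B cell genes tested, 22 were called higher, with a median difference of 6.48. These values include Ighd, which made the sets, so they are a description. Ms4a1 (the surface protein CD20) lay at 46.9, 64.7 and 214 CPM against 0.157, 0.227 and 0.611 CPM, a difference of 7.84 ± 0.50 (SE). Cd79b, a signalling chain of the B cell antigen receptor, lay at 44.7, 64.4 and 233 CPM against 0.157, 0.504 and 0.873 CPM (6.82 ± 0.58). No library of one set entered the range of the other for either gene. Markers of recirculating follicular B cells were among the 22: Fcer2a (CD23, 6.66 ± 1.06), the follicle-homing receptor Cxcr5 (6.99 ± 0.59), the survival receptor Tnfrsf13c (6.53 ± 0.66) and the lineage factor Pax5 (7.30 ± 0.64). The smallest differences among the 22 were those of the adaptor Blnk (2.17 ± 0.38) and the surface protein Cd37 (3.32 ± 0.42). Light chain RNA went the same way, with Igkc at 302, 394 and 1030 CPM against 1.81, 4.89 and 11.7 CPM. The examples Cd79b, Cxcr5, Fcer2a, Tnfrsf13c, Pax5, Cd37, Blnk and Igkc were picked after their values were seen, as were all further examples that are neither markers, nor the 3 most abundant genes of a list, nor among the largest changes.

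Ighm, the constant region of immunoglobulin M, was the 1 gene of the B cell list that did not divide the libraries. It lay at 353, 642 and 905 CPM in the node-containing libraries and at 342, 710 and 850 CPM in the node-poor ones, with a difference of 0.15 ± 0.30. Naive B cells are known to carry Ighm and Ighd on the same transcription unit, and Ighm (chromosome 12, 113418558 to 113422730) lies next to Ighd. In the node-poor libraries Ighm was thus counted at 342 CPM or more, while Ighd did not exceed 5.28 CPM there and Cr2 did not exceed 0.981 CPM. Where those reads came from was not tested.

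T cell genes were called without exception. All 22 tested were called higher, with a median of 4.37, and for all 22 the sets did not overlap. Trbc2 differed by 4.29 ± 0.48, the T cell transcription factor Bcl11b by 4.91 ± 0.86 and the receptor kinase Lck by 4.48 ± 0.60. Coreceptors of both main classes were present: Cd4 lay at 5.56, 14.9 and 47.2 CPM against 0.152, 0.494 and 0.686 CPM, and Cd8a at 6.96, 25.0 and 65.6 CPM against 0, 0.227 and 0.698 CPM. The smallest difference in the list was that of Cd247, the zeta chain (1.43 ± 0.32). Summed over the list, T cell RNA was 231 to 1510 CPM in the node-containing libraries and 26.2 to 39.1 CPM in the node-poor ones.

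Genes of lymphocytes in transit and of helper subsets were called in part. Of 10 genes of naive lymphocyte homing and quiescence, 4 were called higher (median 3.37). Among them Ccr7, the receptor that leads cells into the node, lay at 8.99, 24.9 and 60.9 CPM against 0.305, 0.454 and 1.28 CPM (5.20 ± 0.64). Others were the naive T cell factor Tcf7 (4.98 ± 0.73) and Foxp1 (1.13 ± 0.24), which was not called without Young CTRL 1 or without Young BAM15 1. Klf2 (0.71 ± 0.32) and S1pr1 (0.32 ± 0.38), which are also expressed by blood vessels, were not called. Of 8 regulatory and helper T cell genes, 4 were called higher (median 3.24). Among them were the regulatory factor Foxp3 (1.82 to 8.46 CPM against at most 0.471) and Icos (2.84 ± 0.53). The Foxp3 call was lost in 2 of the 13 fits that left out a library. In the NK and cytotoxic list 2 of 10 were called, Ccl5 (2.95 ± 0.48) and Nkg7 (2.08 ± 0.36), both also made by CD8 T cells, while the NK receptor Ncr1 lay at 0 to 2.46 CPM against 0 to 1.73 CPM.

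The structural cells of a lymph node were represented by fewer genes. In the high endothelial venule list 3 of 9 were called higher (median 1.44). Glycam1 had the largest difference of them, 8.84 ± 0.83. Chst4, the sulfotransferase that sulfates the sugars of these vessels, had 127 counts in the node-containing libraries and 0 in the node-poor ones, which makes it at least 45.6-fold higher against a floor of 3 counts over the group, for counting error only. Its call was lost without Young CTRL 1. The related Chst2 lay at 5.68, 11 and 18.0 CPM against 2.09, 2.74 and 4.48 CPM (1.71 ± 0.34). Ackr1, which also marks ordinary venules, lay at 5.64 to 18.9 CPM against 6.99 to 14.6 CPM. Glycam1 is also made by mammary epithelium. Young CTRL 1 was the library with mammary RNA, at a summed 170 CPM of the 6 mammary genes in the table against 1.50 to 3.94 CPM in the other 6 node-containing libraries. Its Glycam1 was 29.2 CPM, the median of the set, and the part of mammary RNA in that value was not tested.

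Of 11 genes of stroma and follicular dendritic cells, 3 were called higher (median 2.08). Cxcl13, the chemokine that draws B cells into follicles, lay at 30.4, 39.2 and 108 CPM against 0.152, 1.13 and 3.09 CPM (4.94 ± 0.82). The addressin Madcam1 (5.02 ± 1.23) stayed at or under 6.57 CPM and was not called in 9 of the 13 fits that left out a library, and the stromal Bst1 differed by 2.08 ± 0.52. Mfge8, the most abundant gene of the list, is also made by other fat cells and overlapped (419 to 1120 CPM against 573 to 962 CPM). Clu, which follicular dendritic cells express strongly, lay at 104, 205 and 463 CPM against 21.3, 34.7 and 43.0 CPM (2.41 ± 0.39). In the list of lymphatic endothelium none of 8 was called by edgeR, 4 had an unadjusted p under 0.05, and limma-voom called 3 and DESeq2 1. Its most abundant gene Lyve1 lay at 23.8 to 68.1 CPM against 10.1 to 116 CPM.

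The signals that organise lymphoid tissue followed the lymphocytes on the ligand side. Of 13 genes of lymphotoxin and lymphoid chemokine signalling, 8 were called higher (median 2.35). The ligands Lta (2.57 to 14.6 CPM against at most 0.377) and Ltb (10.3 to 55.8 CPM against at most 1.48) differed by 6.33 ± 1.01 and 4.97 ± 0.80, and Tnf by 3.33 ± 0.63. The receptors did not separate: Ltbr lay at 62.2 to 132 CPM against 70.2 to 112 CPM, and Tnfrsf1a at 107 to 156 CPM against 103 to 188 CPM. Downstream, the kinase Map3k14 differed by 1.48 ± 0.34, while Relb (0.84 ± 0.43) and Nfkb2 (0.68 ± 0.28) were not called although their libraries did not overlap.

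Antigen-presenting cells were represented unevenly. Of 9 MHC class II genes, 3 were called higher (median 1.04): H2-Oa, a chain of the peptide-loading regulator DO of B cells (7.74 ± 0.70), H2-DMb2 (4.56 ± 0.62) and Ciita, the master regulator of these genes (2.87 ± 0.65). The abundant Cd74, the invariant chain, lay at 505 to 1480 CPM against 174 to 731 CPM (1.04 ± 0.51) and H2-Aa at 620 to 1570 CPM against 269 to 1250 CPM (0.62 ± 0.49). Both node-poor maxima belonged to Young CTRL 4, the library with little mt-Rnr2, and the other 5 node-poor libraries held at most 320 CPM of Cd74 and 527 CPM of H2-Aa. In the dendritic cell list 5 of 12 were called (median 1.34), such as Ccl22 (4.07 ± 0.89), the growth factor receptor Flt3 (3.24 ± 0.67) and Xcr1 (2.90 ± 0.58). The 3 most abundant members Fscn1 (0.08 ± 0.55), Zbtb46 (-0.56 ± 0.34) and Itgax (0.61 ± 0.37) were not called. Summed over the list, the node-poor Young CTRL 4 held 335 CPM and the other node-poor libraries 92.6 to 194 CPM. The node-containing libraries held 129 to 365 CPM. None of the 10 adipose macrophage genes was called, by edgeR, DESeq2 or limma-voom, and none had an unadjusted p under 0.05 in edgeR. Their median was -0.12, 0.07 with library totals alone, 0.18 with limma-voom and 0.31 without Young CTRL 1.

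Sinus macrophage genes set 1 library apart. Of 5 genes, Timd4 was called (3.22 ± 0.74), and it was not called in 8 of the 13 fits that left out a library. Marco lay at 14.3 to 135 CPM in 6 node-containing libraries and at 3.42 CPM in Young BAM15 4, inside the node-poor range of 0.152 to 4.83 CPM. Cd209b lay at 33.2 to 185 CPM in the 6 and at 12.3 CPM in Young BAM15 4, also inside the node-poor range of 7.77 to 13.8 CPM. Timd4 lay at 16.4 to 94.0 CPM in the 6 and at 4.39 CPM in Young BAM15 4, just above the node-poor maximum of 3.57 CPM. The same library had 79.0 CPM of Cr2 and 39.2 CPM of Cxcl13, so its B cell and follicle RNA was within the range of the set. It also had the lowest Tcf7 of the set (3.21 CPM against 10.6 to 70.5) and the most Ighg2c, a constant region of switched immunoglobulin G (57.2 CPM against 0.410 to 13.3).

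Secreted antibody genes were called in part. Of 14 plasma cell genes, 5 were called higher (median 1.94): Mzb1 (5.55 ± 0.63), the joining chain Jchain (4.09 ± 0.84), Ighg2b, Ighg2c and Ighg3. Jchain lay at 5.22 to 26.6 CPM against 0 to 1.73 CPM, and its call was lost in 2 of the 13 fits that left out a library. Ighg3 had 142 counts against 0, at least 51.0-fold higher against the floor of 3 counts, for counting error only. Ighg2c had 871 counts against 1, a 939-fold ratio of pooled levels (exact 95% interval 168 to 37100, counting error only). The interval leaves out the spread between mice, and Young BAM15 4 held by far the most Ighg2c of the set. The Ighg2c call was lost without Young CTRL 1, without Young CTRL 3 or without Young BAM15 1. The 3 most abundant genes of the list, Xbp1, Sdc1 and Irf4, were not called. Germinal centre genes gave no call by edgeR, DESeq2 or limma-voom among 5 tested, with 0 at an unadjusted p under 0.05 in edgeR, and Bcl6 lay at 70.7 to 145 CPM against 42.9 to 93.4 CPM. Dntt, the polymerase of developing lymphocytes, was counted in all 7 node-containing libraries (0.232 to 2.05 CPM) and in none of the 6 others. It had 96 counts against 0, at least 34.5-fold higher for counting error only.

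**Figure D2:**
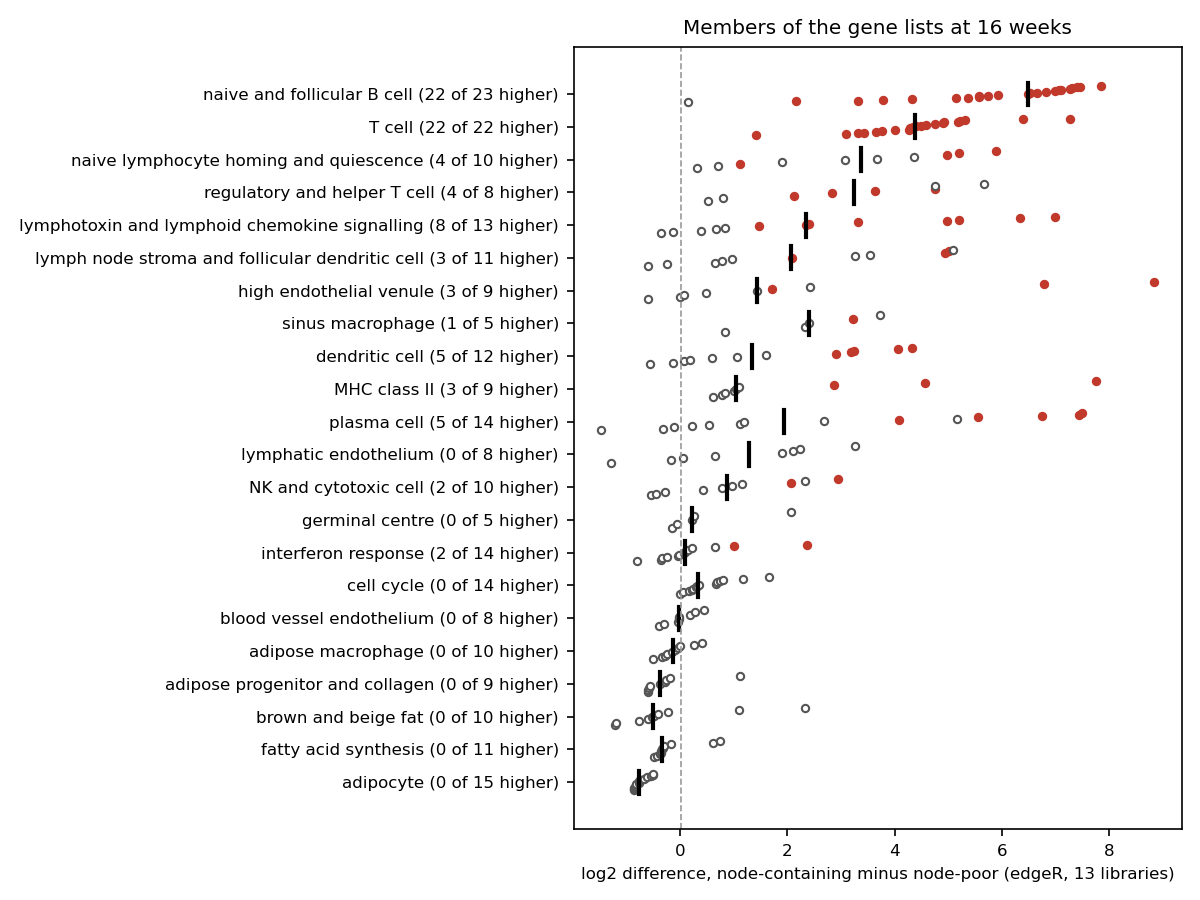
Log2 difference at 16 weeks for every tested member of 22 gene lists (horizontal axis, node-containing minus node-poor from edgeR over 13 libraries; filled red points are called, open points are not; black bars are list medians; the dashed line is the median of all genes). B cell and T cell lists lie farthest right, at medians of 6.48 and 4.37, and adipocyte genes lie left of 0 without a call.

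Of the lists outside the immune cells, the interferon and mammary lists held 3 called genes together. In the interferon list 2 of 14 genes were called (median 0.09), among them the antiviral Mx1 at 4.00 to 12.2 CPM against 0.349 to 1.18 CPM (2.37 ± 0.50). None of the 14 cell cycle genes was called by edgeR (median 0.34, 5 with an unadjusted p under 0.05), with 1 call by DESeq2 and 0 by limma-voom. Blood vessel genes had a median of -0.01 with no call by any of the 3 tools and none at an unadjusted p under 0.05. Mast cell and red blood cell lists gave no call either, with medians of 0.04 and -0.44 and none at an unadjusted p under 0.05. Skeletal muscle had a median of -4.71, which became 1.38 without Young CTRL 1, with the single muscle-rich library of each set in the fit. The skin list had a median of 1.87, which became -1.58 without Young CTRL 1. The mammary epithelial list had a median of 4.82, with 1 of 6 genes called (the keratin Krt8, with 136 counts against 2) and 5 at an unadjusted p under 0.05, beside the mammary RNA of Young CTRL 1 given above.

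Adipocyte genes leaned down without passing the threshold. All 15 had a difference under 0, with a median of -0.76, and none was called. In edgeR 10 of the 15 had an unadjusted p under 0.05, against 15.2% of all genes. DESeq2 and limma-voom called none. With library totals alone, where the median of all genes rose to 0.20, the list's median was -0.59 and again all 15 were under 0. Without a treatment term, 13 of the 15 were under 0 and 4 were called. Summed over the list, the 7 node-containing libraries held 30500 to 55000 CPM and the 6 node-poor ones 33300 to 78100 CPM. The 33300 CPM belonged to the muscle-rich Young CTRL 7, and the other 5 node-poor libraries held 57700 CPM or more. In the node-containing set, the muscle-rich Young BAM15 3 held 30500 CPM. Young CTRL 1, with its keratin and mammary RNA, held 30900 CPM. The remaining node-containing libraries ran from 30500 CPM in Young BAM15 5 to 55000 CPM in Young BAM15 4. The hormone genes Adipoq (adiponectin, -0.85 ± 0.35) and Lep (leptin, -0.86 ± 0.40) and the lipid carrier Fabp4 (-0.85 ± 0.32) differed by similar amounts. Lep lay at 409 to 1940 CPM against 1070 to 4140 CPM, so the sets overlapped. Fatty acid synthesis genes had a median of -0.34 with no call by the 3 tools and 1 of 11 at an unadjusted p under 0.05, and Fasn, the synthase itself, differed by -0.31 ± 0.23. The brown and beige fat list had a median of -0.49 that became 0.19 without Young CTRL 1, and its uncoupling protein Ucp1 stayed at or under 6.81 CPM in all libraries. Progenitor and collagen genes had a median of -0.36, which became 0.04 without Young CTRL 1.

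**Figure D3:**
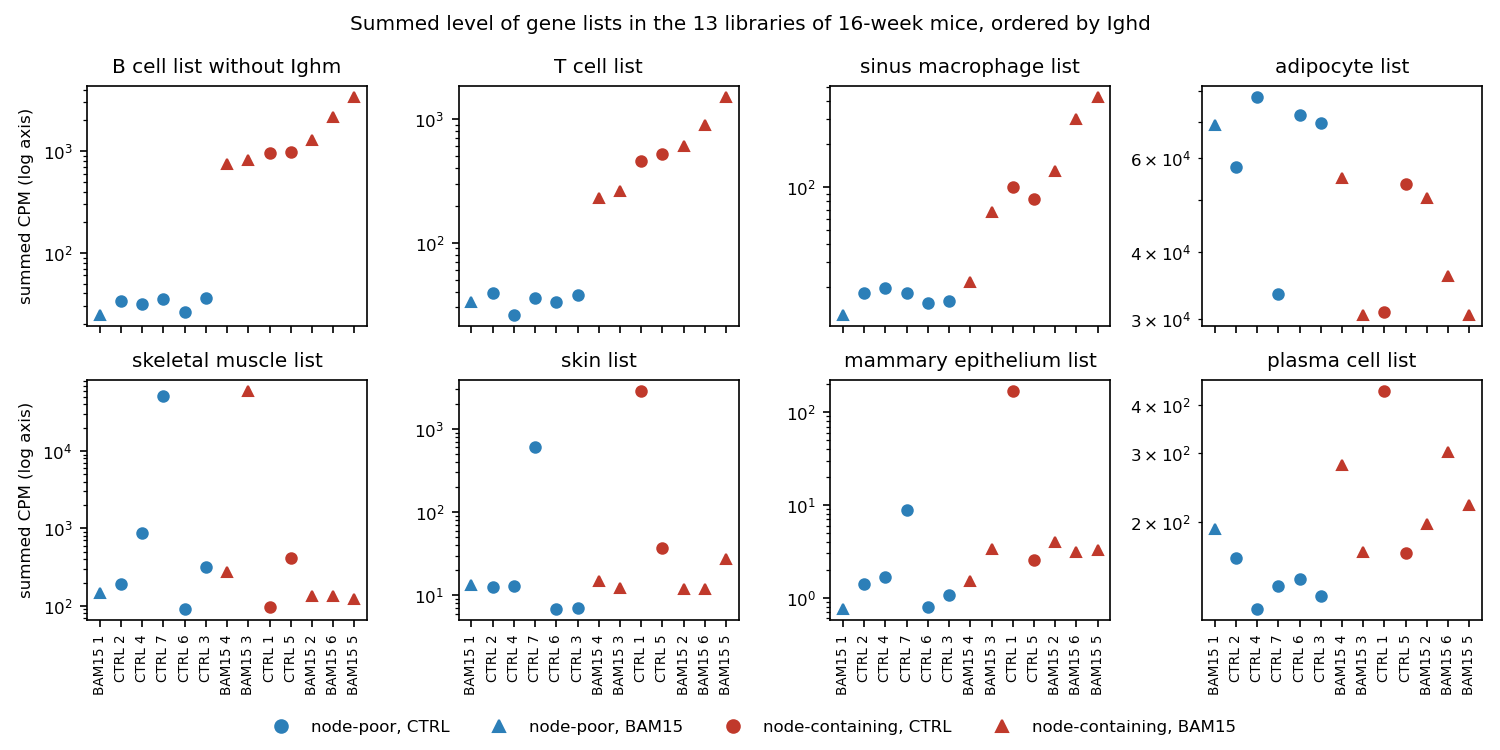
Summed CPM of 8 gene lists in each 16-week library (vertical axis, log; horizontal axis, libraries in rising order of Ighd; circles CTRL, triangles BAM15; red node-containing, blue node-poor). T cell sums lie at 231 CPM or more in the red points and at 39.1 CPM or less in the blue ones, while the muscle, skin and mammary sums stand out in 1 or 2 libraries each.

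The largest called rises of genes with a mean of 5 CPM or more mixed lymphoid genes with genes of 1 library. Glycam1, Ms4a1 and H2-Oa belong to the lymphoid group, as does Ffar1 by its levels. Ffar1, a fatty acid receptor known from pancreatic islets, lay at 8.93, 12.7 and 57.4 CPM in the node-containing libraries, with 3 counts in all 6 node-poor libraries together, a 532-fold ratio of pooled levels (exact 95% interval 182 to 2580, counting error only). It lies on chromosome 7 from 30857390 to 30861564, minus strand, 3837 bases beyond the end of the B cell gene Cd22, which reads on the same strand. Whether these reads come from Ffar1 or run on from Cd22 was not tested. Olah, Bglap3, Wfdc18 and Slpi were at their highest in Young CTRL 1, with Olah, a thioesterase of milk fat synthesis, at 600 CPM there and at most 0.707 CPM in the other 12 libraries. In all, 34 of the 543 called genes were above every node-poor library in Young CTRL 1 while the median of the other 6 node-containing libraries was not.

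Of the 11 genes called lower, 8 are named genes: the endothelial and pericyte adhesion molecule Mcam (77.7 to 138 CPM against 128 to 252 CPM, -0.92 ± 0.21), the membrane protein Emp1 (-0.89 ± 0.20), the prostaglandin synthase Ptges (-1.03 ± 0.26), the body-axis factor Hoxa10 (-0.79 ± 0.20), the proteoglycan Gpc4 (-0.91 ± 0.24), Arfgap3, Glb1l2 and Mettl7a1. Only 1 of the 11 separated the sets without overlap. None of the 11 was called without Young CTRL 1, without Young BAM15 1 or in the CTRL libraries alone, and 2 were called with library totals alone.

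The counts of the split were not even over the treatments: 2 of 7 Young CTRL and 5 of 6 Young BAM15 libraries were node-containing. A Fisher exact test of set against treatment gave p = 0.103, so these libraries do not show that the set goes with the treatment. The fit gives treatment and set each a term of its own. With the set term, 0 of 17221 genes were called for BAM15 minus CTRL by edgeR, and 1375 had an unadjusted p under 0.05 (7.98%). Without the set term the calls were also 0, and 3118 genes had an unadjusted p under 0.05. DESeq2 called 151 genes, 130 of them lower in BAM15, and limma-voom 10, both with the set term. Without Young CTRL 5, edgeR called 81 genes, 78 of them lower in BAM15. Ms4a1 differed between the treatments by 2.40 ± 1.57 without the set term (edgeR adjusted p = 0.44) and by 0.65 ± 0.46 with it (adjusted p = 0.83). For Trbc2 the differences were 1.87 ± 1.04 and 0.20 ± 0.49, and for Glycam1 2.57 ± 1.67 and 1.13 ± 0.69, none of them called. The set term is a split on Ighd, with which these 3 genes go. Their smaller differences with that term therefore follow from how the sets were made and are no separate result.

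Whether the set difference itself depended on the treatment was asked with an interaction term. By edgeR 0 of 17221 genes were called, with 618 at an unadjusted p under 0.05 (3.59%), 3 calls by DESeq2 and 0 by limma-voom. Without Young CTRL 5, edgeR called 54. One of the 4 cells of this design is the single node-poor BAM15 library, so the interaction leans on 1 mouse. In simulated data of this design, 10% of genes with a true log2 difference of 2 and 30% of those with 3 were called, which limits what it could find. The changed genes had means above 5 CPM, so power for rarer genes was not tested.

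The 92-week mice offer the same split in other animals. At the same threshold 5 of 11 libraries were node-containing: Aged CTRL 1 (13.7 CPM of Ighd), Aged CTRL 2 (67.4), Aged BAM15 2 (25.7), Aged BAM15 3 (52.0) and Aged BAM15 4 (82.7). The 6 others lay at 0.434 to 2.72 CPM. The sets are again made from Ighd, so calls and counts of p are here too a description and no test of the split. Of 16437 genes tested, 24 were called higher (0.146%) and 0 lower by edgeR, with 928 at an unadjusted p under 0.05 (5.65%). With DESeq2 there were 192 genes higher and 53 lower, and with limma-voom 102 and 89. All 24 had been called higher at 16 weeks, which is 100% of the 92-week and 4.42% of the 16-week list. No gene was called without Aged CTRL 2 or without Aged BAM15 1. The libraries Aged CTRL 2 and Aged BAM15 2, both node-containing, and the node-poor Aged BAM15 5 had little mt-Rnr2 (0.201%, 0.166% and 0.257% of counts), and without these 3 there were 29 genes called higher and 61 lower.

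Beside Ighd itself, the 24 included the B cell genes Ms4a1 (5.17 ± 0.82), Cd79b of the antigen receptor (4.05 ± 0.50) and the factor Spib (5.55 ± 0.73). They also included Ltb (5.64 ± 0.76), Timd4 (3.88 ± 0.59), Ccl22 (4.60 ± 0.69) and Clu (1.73 ± 0.29). Glycam1 (5.38 ± 0.91) and Cr2 (5.60 ± 1.06) were not called, although all 5 node-containing libraries lay above all 6 others for both. Over all 16437 genes tested, 175 (1.06%) separated the sets in this way. Of 22 T cell genes 0 were called by edgeR, 13 by DESeq2 and 4 by limma-voom, 17 had an unadjusted p under 0.05 in edgeR and the median was 2.59, against 9 of 23 (Ighd included) and a median of 4.52 for the B cell genes. Of the 507 genes called higher at 16 weeks and tested here, 474 differed upward (93.5%, against 50.9% of all genes), with a median of 1.53 (0.01 over all genes).

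**Figure D4:**
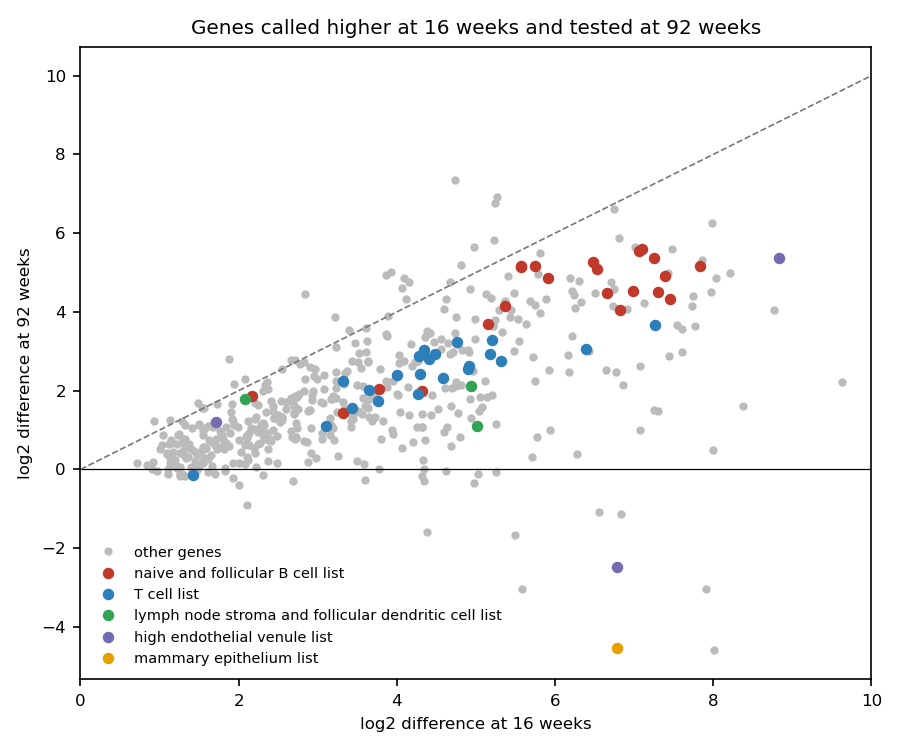
Log2 difference of node-containing minus node-poor libraries at 16 weeks (horizontal axis) and at 92 weeks (vertical axis) for the 507 genes called higher at 16 weeks and tested at both ages (grey, other genes; colours, gene lists; dashed line, equal differences). Of the points, 474 lie above 0 at 92 weeks.

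Levels relative to Ighd were set side by side for 17 genes picked after their values were seen. Ighd is the gene that chose the libraries, and it was lower in the node-containing libraries at 92 weeks (13.7 to 82.7 CPM) than at 16 weeks (73.1 to 367 CPM), so the ratios are a description without a test. They are ratios of counts of different genes and are compared between libraries, not between genes.

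At 16 weeks, where Ighd itself spanned 5.03-fold over the 7 libraries, the ratio of Ms4a1 to Ighd spanned 1.32-fold (0.502 to 0.661), that of Trbc2 1.44-fold (0.441 to 0.635), that of Cr2 1.63-fold (0.663 to 1.08), that of Cxcl13 1.97-fold and that of Glycam1 2.11-fold (0.151 to 0.319). Other ratios spanned as much as Ighd or nearly so: Timd4 and Cd209b 4.26-fold each, Jchain 6.18-fold, Marco 7.87-fold and Ighg2c 246-fold. Young BAM15 4 had the lowest ratio of Marco, at 0.0469 against up to 0.369 in the others. At 92 weeks the ratio of Ms4a1 lay at 0.443 to 0.653, inside a similar range, while that of Trbc2 lay at 0.193 to 1.72 and that of Cxcl13 at 0.362 to 2.02.

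Some ratios were higher in the 5 libraries of 92 weeks than in the 7 of 16 weeks. The macrophage receptor Marco lay at 0.424 to 2.82 per Ighd against 0.0469 to 0.369, a difference of 2.12 in mean log2 ratio, with no overlap. The chemokine Ccl22 lay at 0.106 to 0.409 against 0.0315 to 0.0902 (1.75), also with no overlap. Timd4 (2.09), Cd209b (1.72), Clu (1.18) and the plasma cell gene Mzb1 (1.23) overlapped between the ages. After the median node-poor level of the same age was subtracted, these 6 differences were 1.07 to 2.29. Ccl22 then still had no overlap (0.102 to 0.419 against 0.0248 to 0.0857), while Marco just overlapped (0.362 to 2.74 against 0.0115 to 0.363). For Jchain the difference was 3.52, and 2.78 after the subtraction, and for Cxcl13 it was 1.21 and 0.85. Jchain did not overlap before the subtraction and did after it (0.0224 to 3.94 against 0.0227 to 0.146). Node-poor fat at 92 weeks held 0.0778 to 16.1 CPM of Jchain and 2.04 to 12.9 CPM of Cxcl13. The differences were smaller for Ms4a1 (-0.17), Cr2 (0.08), Trbc2 (0.40) and Glycam1 (-0.51). Without Aged CTRL 2 and Aged BAM15 2, which had little mt-Rnr2, that of Trbc2 was 1.05, that of Ccl5 1.92 in place of 1.07, that of Timd4 1.42 and that of Glycam1 -0.11.

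**Figure D5:**
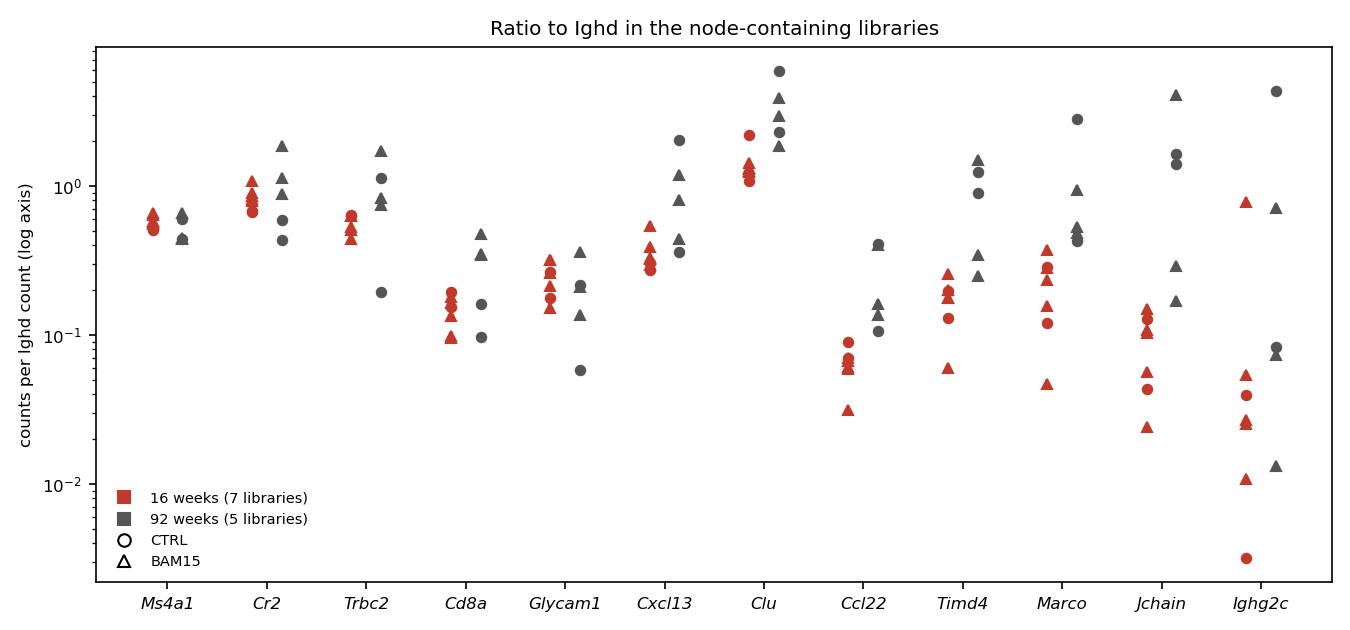
Counts of 12 genes per count of Ighd in the node-containing libraries (vertical axis, log; red, 7 libraries at 16 weeks; grey, 5 at 92 weeks; circles CTRL, triangles BAM15). Ms4a1 lies between 0.443 and 0.661 at both ages, while Ccl22, Marco and Jchain have no overlap between the ages. No node-poor level is subtracted here.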

How the data were processed

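RNA of 24 samples was sequenced as 3′ libraries. The authors deposited whole-number counts per gene for all libraries in 1 table, which was used for every result. The submitters' processing notes name the build GRCm38, R 3.4.3 and DESeq2 1.18.1, while aligner, counter and annotation are not given in the sources at hand. The table held 17541 genes, each with at least 72 counts over the 24 libraries, and 17494 identifiers had a symbol. Libraries were sorted by the CPM of Ighd (count divided by library total), at a threshold of 10. CPM levels use library totals, and fold changes use trimmed mean of M values factors, which ran from 0.925 to 1.11 in node-containing and from 0.870 to 1.05 in node-poor 16-week libraries. Genes were filtered with filterByExpr within set and treatment and fitted with the robust quasi-likelihood test of edgeR 4.0.16 (R 4.3.3), with terms for set and treatment, separately at 16 weeks (10 residual degrees of freedom, common biological coefficient of variation 0.590) and at 92 weeks (8, 0.673). SE is the absolute log2 value divided by the square root of F. DESeq2 1.42.0 and limma-voom 3.58.1 were alternatives, as were other scalings, no filter, libraries left out, thresholds of 5 and 20 CPM and the replicate number as a block. The script was tested on simulated data of 17221 genes for the 16-week set comparison. It recovered 73% of changed genes with a true log2 difference of 2 and 93% of those with 3. The changed genes had means above 5 CPM, so recovery of rarer genes was not tested. All simulated libraries shared a base profile, without single libraries rich in muscle, skin or mammary RNA. Libraries of a group were no copies of each other (chi-square per gene 18.0 to 590 over 36 pairs).

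The rule, the 29 gene lists and the threshold were chosen with earlier results of these data known. Genes were named if they were the 4 markers, the 3 most abundant of a list, the 10 largest called rises or falls at a mean of 5 CPM or more (no predicted genes, no receptor segments), or Ucp1, Lep, Adipoq, Fasn, Acta1 and Krt14. Further examples were picked after their values were seen. Some genes that the rule takes are not reported here. The neutrophil list (4 tested, 1 called, Cxcr2) is given only here.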

Additional observations from a re-analysis of the deposited data

Results flagged for a closer look

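In 58 checks of list sums (29 lists, each in both 16-week sets), 8 had a single library far outside the others of its set. All 8 fell on 3 libraries. The checks are not independent, so no rate expected by chance is set against them. Young CTRL 1 held 2880 CPM of skin genes, against 12.0 to 37.5 CPM in the other node-containing libraries, and 170 CPM of mammary epithelial genes, against 1.50 to 3.94 CPM. Young CTRL 7 held 602 CPM of skin genes, against 6.91 to 13.2 CPM in the other node-poor libraries, and 8.72 CPM of mammary genes, against 0.762 to 1.69 CPM. The same library held 50900 CPM of skeletal muscle genes, against 92.0 to 869 CPM, and 33300 CPM of adipocyte genes, against 57700 to 78100 CPM. Young BAM15 3 held 59800 CPM of skeletal muscle genes, against 96.7 to 414 CPM in the other node-containing libraries, and 640 CPM of brown and beige fat genes, against 169 to 247 CPM. That list includes Cox7a1 and Cox8b, which muscle also expresses. Of these 3 libraries, Young CTRL 1 and Young BAM15 3 are node-containing and Young CTRL 7 is node-poor.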

How the results depend on the processing

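The 16-week set comparison called 554 genes. The count was 1028 with DESeq2, 917 with limma-voom and 1323 with no treatment term. It was 755 without the muscle-rich libraries, 519 without Young CTRL 4 and 339 without the libraries with skin keratin. In the CTRL libraries alone it was 139, at an Ighd threshold of 5 CPM 33, and with 1 library left out 292 to 714. For BAM15 the count of 0 became 151 with DESeq2, 10 with limma-voom, 1 without the muscle-rich libraries and 0 to 81 with 1 library left out (81 without Young CTRL 5). The interaction gave 3 with DESeq2 and 0 to 54 with 1 library left out (54 without Young CTRL 5), and could not be fitted without Young BAM15 1. At 92 weeks the 24 calls became 245 with DESeq2, 191 with limma-voom, 15 with library totals alone, 39 at a threshold of 20 CPM, 90 without the libraries with little mt-Rnr2 (29 higher, 61 lower) and 0 to 53 with 1 library left out. Library totals alone gave 717 higher and 2 lower calls at 16 weeks and moved the median of all genes from 0.03 to 0.20. The cause of these changes was not tested.

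Replicate numbers did not pair the libraries: over genes, the deviations of same-number libraries (6 pairs) had a median r of -0.00 (-0.29 to 0.49), those of 36 other pairs -0.03, and 1 of 6 BAM15 libraries matched its own number best. With the replicate number as a block, the set comparison called 217 genes, 180 of them among the 543, and BAM15 minus CTRL 6. Olah reversed to -0.15 with limma-voom. Of 1943 single-gene values under other settings, 1596 kept their side of the threshold, 293 lost and 35 gained a call. Low counts limit Chst4, Dntt, Ighg3, Ighg2c, Krt8 and Ffar1, which had at most 3 counts over the node-poor libraries.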
